A study of Sus scrofa with 12 samples.

Results

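The lysosomal cathepsins are the proteases that break down proteins in the acid interior of the lysosome. The 10 genes followed here are *CTSA*, *CTSB*, *CTSC*, *CTSD*, *CTSF*, *CTSH*, *CTSK*, *CTSL*, *CTSS* and *CTSZ*. They were taken by name as listed genes and not by any measured value, and are 10 of the 13311 annotated genes that had an assembled transcript in at least 1 library. Of the 10, 8 had a mean over 0.5 FPKM (a level scaled to transcript length and library size) across the 12 libraries and were tested between groups. *CTSF* and *CTSL* did not reach it.

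Cathepsins are made as inactive precursors. They are tagged with mannose 6-phosphate, carried to the lysosome by its receptors, and cut to the active form at low pH. Most are cysteine proteases of the papain type, while *CTSD* encodes an aspartic protease and *CTSA* a serine carboxypeptidase. In muscle they take part in protein turnover, and after slaughter they are counted, with calpains and caspases, among the enzymes that may cleave myofibrillar and connective proteins while meat ages.

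RNA-seq was made from the *Longissimus dorsi* muscle (loin) of 12 castrated male purebred Iberian pigs, 1 library for each animal. All had been fattened outdoors on acorns and grass, and their muscle was kept frozen. The 6 Tough pigs had high breeding values for shear force, 1.76 to 2.4, and loins of 7.32 to 10.63 kg/cm2. The 6 Tender pigs had low breeding values, -1.09 to -0.98, and loins of 2.18 to 3.43 kg/cm2. Animals were picked at both extremes, avoiding animals with a shared parent, and the groups were given no treatment. A seventh Tender pig of the study was not analysed here. A loin sample holds muscle fibres together with vessels, fat, connective cells and macrophages, so that fewer cells of a type and less RNA per cell cannot be told apart.

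The libraries held 25798 to 31353 assembled transcripts, of which 66.9% to 77.8% could be assigned to a gene. Fibre genes marked the tissue in all 12 libraries, with titin (*TTN*) at 58.0 to 119 FPKM in Tough and 24.6 to 94.5 FPKM in Tender. Some genes that every fibre uses were nevertheless listed at 0, *GAPDH* in 5 libraries, *ALDOA* in 6 and *CKM* in 7, so a value of 0 in these files can be a missed assembly. Tender 2 stood apart in genes that interferon gamma induces, with *GBP1* at 170 FPKM there against at most 5.71 FPKM in Tough. A marker of blood had a higher mean in Tender but was not called. Beta globin (*HBB*) averaged 164 ± 31.9 FPKM in Tough and 294 ± 47.5 FPKM in Tender (SD, n = 6 each). Its groups did not overlap, as in 0.0986% of all genes tested, and its limma adjusted p was 0.804.

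Of the cathepsins, *CTSA*, *CTSB*, *CTSD*, *CTSH* and *CTSZ* moved together from library to library. *CTSC* did not move with them, and *CTSK* and *CTSS* followed them less closely. The 250 bases before the annotated start of *CTSB*, *CTSD*, *CTSH*, *CTSZ* and *CTSC* are given next for that reason. They were read from the RefSeq genome (Sscrofa11.1), 5′ to 3′ on the gene's strand, with capitals for a GC box (GGGCGG or its complement).
*CTSB*, chr14:15035082-15035331, minus strand: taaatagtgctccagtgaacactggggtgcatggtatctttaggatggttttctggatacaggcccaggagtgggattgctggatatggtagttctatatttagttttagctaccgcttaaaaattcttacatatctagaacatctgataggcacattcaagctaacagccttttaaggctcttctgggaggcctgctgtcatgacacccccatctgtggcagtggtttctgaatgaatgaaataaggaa
*CTSD*, chr2:1197643-1197892, minus strand: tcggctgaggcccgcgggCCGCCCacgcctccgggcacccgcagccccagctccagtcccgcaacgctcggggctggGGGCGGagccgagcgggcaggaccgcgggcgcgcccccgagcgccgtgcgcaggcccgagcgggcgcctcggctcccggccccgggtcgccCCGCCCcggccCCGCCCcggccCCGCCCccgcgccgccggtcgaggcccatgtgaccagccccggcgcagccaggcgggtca
*CTSH*, chr7:48106073-48106322, minus strand: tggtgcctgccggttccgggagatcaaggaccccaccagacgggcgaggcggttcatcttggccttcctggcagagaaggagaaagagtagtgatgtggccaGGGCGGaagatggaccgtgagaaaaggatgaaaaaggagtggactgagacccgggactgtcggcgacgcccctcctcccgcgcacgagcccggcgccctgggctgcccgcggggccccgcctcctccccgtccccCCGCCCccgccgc
*CTSZ*, chr17:59149378-59149627, minus strand: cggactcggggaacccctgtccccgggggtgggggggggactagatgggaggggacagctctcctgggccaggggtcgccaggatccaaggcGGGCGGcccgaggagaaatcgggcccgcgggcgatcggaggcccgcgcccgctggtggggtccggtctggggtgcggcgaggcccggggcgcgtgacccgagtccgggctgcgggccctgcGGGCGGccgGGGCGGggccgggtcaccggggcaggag
*CTSC*, chr9:21761797-21762046, minus strand: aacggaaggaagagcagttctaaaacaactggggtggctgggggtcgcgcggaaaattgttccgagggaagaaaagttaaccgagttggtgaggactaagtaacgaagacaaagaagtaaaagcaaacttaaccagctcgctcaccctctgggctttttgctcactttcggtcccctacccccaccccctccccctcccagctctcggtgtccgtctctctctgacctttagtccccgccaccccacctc

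The windows differed widely in base composition. G and C made up 85.2% of the *CTSD* window and 79.6% of the *CTSZ* window, but 42.8% of the *CTSB* window. The *CTSD* window held 5 GC boxes, that of *CTSZ* 3 and that of *CTSH* 2, while none lay in those of *CTSB* and *CTSC*. GC boxes were common in general, being found on either strand in 45.9% of the 19531 windows of protein-coding genes. None of these windows held an E-box, CACGTG on either strand, which is the core of the motif bound by TFEB, a transcription factor of lysosomal genes. *CTSF* had an E-box that began 55 bases before its start, at chr2:5855028-5855033. An E-box lay in 6.39% of all windows and in 6 of 25 windows of other lysosomal hydrolases. It also lay in 2 of 22 windows of lysosomal acidification and membrane genes. Of the skeletal muscle and macrophage genes, 2 of 11 and 1 of 13 windows held one. The longer palindrome GTCACGTGAC, read on both strands and overlapping the E-box by construction, was in neither these windows nor that of *CTSF*, but in 2 of the 25 hydrolase windows and in 0.261% of all windows. For *CTSB* the window precedes the annotated start, which lies 262 bases or more upstream of any assembled transcript.

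The levels of the cathepsins ran from barely assembled to among the higher genes of the loin, with *CTSD* and *CTSB* on top in every library. *CTSD* was the highest with a mean of 104 ± 25.7 FPKM (SD, n = 12), above 96.8% of all genes tested. *CTSB* followed with 40.1 ± 7.95 FPKM, and *CTSD* exceeded *CTSB* in 12 of 12 libraries, by 2.18 to 3.13 times. *CTSB* in turn exceeded *CTSA*, at 19.3 ± 4.40 FPKM, in 12 of 12 libraries. *CTSA* and *CTSZ* were close, *CTSZ* averaging 16.5 ± 4.62 FPKM and being the lower of the pair in 10 of 12 libraries. By gene FPKM *CTSC* was at 6.73 ± 4.34 and *CTSH* at 5.08 ± 1.74. On that measure *CTSC* was the higher in only 5 of 12 libraries. Gene FPKM divides by the annotated exon length, which is 4668 bases for *CTSC*, 4054 for *CTSS* and 1425 for *CTSH*. By the FPKM of the highest transcript, *CTSC* exceeded *CTSH* in every library but Tender 2 (8.27 against 8.81 FPKM). The order of these 2 genes therefore depends on the measure. By gene FPKM *CTSS* was the lowest of the 8 cathepsins tested, at 0.823 ± 0.388 FPKM. *CTSD* alone made up 47.8% to 58.5% of the summed gene FPKM of the 10 genes, and *CTSB* another 18.4% to 23.0%.

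**Figure D1:**
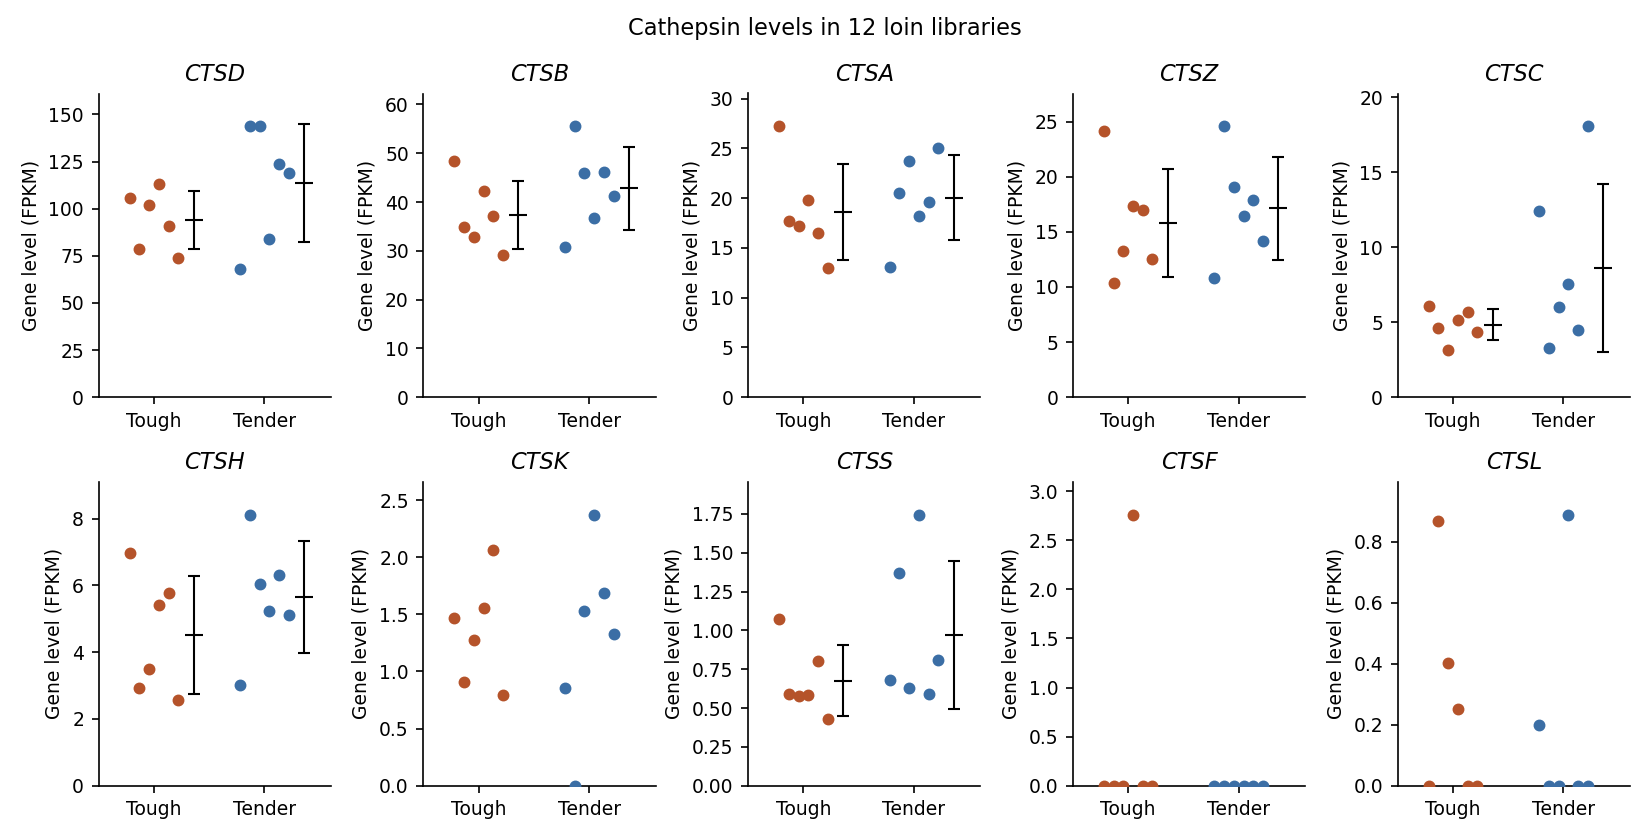
Level of each cathepsin in FPKM (vertical axis, from 0 in each panel) in 6 Tough (left) and 6 Tender (right) loins, with points in the order of the animal numbers and the mean ± SD beside each group. No error bar is drawn for CTSK, CTSF and CTSL, which are listed at 0 in some libraries. The groups overlap for every gene, and CTSC ranges from 3.17 to 6.06 FPKM in Tough and from 3.25 to 18.1 FPKM in Tender.

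Between the groups, no cathepsin was called. A call in limma on log2(FPKM + 0.5) needed a p up to 0.05, a p up to 0.10 after Benjamini-Hochberg adjustment, and a change of 1.5-fold or more. Of the 8 tested, 0 passed it, as did 0% of the 9127 genes tested, and the adjusted p was 0.9999 for each of the 8. At an unadjusted p of at most 0.05 the count was again 0 of 8, where 2.44% of all genes stood (1.72% with the higher level in Tender). The exact permutation test gave 0 of 8 at that p, against 2.43% of all genes, and an exact Wilcoxon test also gave 0 of 8. In no member were the groups free of overlap, as they were in 0.0986% of all genes. The fitted log2 fold change of Tough over Tender was below 0 for 7 of the 8, with 60.1% of all genes on that side. Its median was -0.21 over the 8 and -0.04 over all genes, and without Tender 2 the median of the 8 was -0.16. These 8 are the members that passed the filter on low values.

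Of the 8 cathepsins tested, *CTSC* had the largest fitted difference when every assigned transcript and all 12 libraries were used. That order depended on the libraries and the transcripts, since *CTSH* was the larger without Tender 1 (-0.47, against -0.44 for *CTSC*), both were at -0.33 without Tender 6, and *CTSB* and *CTSZ* were the larger where 90% of the bases of a transcript had to lie in the gene. *CTSC* encodes dipeptidyl peptidase I, which in human and mouse activates the granule serine proteases of leukocytes. Its level was 6.06, 4.61, 3.17, 5.12, 5.71 and 4.35 FPKM in Tough 1 to 6, against 12.4, 3.25, 6.00, 7.54, 4.47 and 18.1 FPKM in Tender 1 to 6. All 6 Tough loins lay within a narrow band, while 3 Tender loins lay above the highest Tough loin and the other 3 lay within the Tough range. The log2 fold change was -0.58 ± 0.34 (SE), with a 95% interval of -1.33 to 0.17. The limma p was 0.116 (adjusted p = 0.9999), and the exact permutation test gave a two-sided p of 0.162. Left without Tender 6, the fitted value was -0.33, and without Tender 2 it was -0.80 with an unadjusted p of 0.0266 and an adjusted p of 0.9995 in limma. The study had called *CTSC* differentially expressed and higher in Tender, whereas no call was made here. It used another test, Cuffdiff, on these animals and the further Tender pig left out here. Its mean levels of *CTSC* were several times those here in both groups, so the levels are not on the same scale. Since the animals are shared, the direction here is not independent evidence.

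The transcripts behind the *CTSC* value were also examined. The gene lies on chromosome 9 (chr9:21726628-21761796, minus strand, Sscrofa11.1), and the annotation gives it 2 transcripts. A transcript with all 6 introns of the first one was assembled in 8 libraries, 3 Tough and 5 Tender. In Tough 2, 4 and 5 and in Tender 2 the assembled chain began at exon 2, with 5 introns, and exon 1 stood apart as a single-exon transcript of 2.70 to 7.42 FPKM. The intron between them is 1652 bases long (chr9:21759579-21761230), and the sequences at its ends are shown because all 4 of these chains stopped there. Each holds 20 bases on either side of the border, with the first and the last pair of intron bases in capitals.
*CTSC* end of exon 1, chr9:21761211-21761250: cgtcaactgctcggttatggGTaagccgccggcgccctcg
*CTSC* start of exon 2, chr9:21759559-21759598: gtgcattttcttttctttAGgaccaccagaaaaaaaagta

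Both borders carry the usual bases, GT at the start and AG at the end of the intron. In 11 of 12 libraries, all but Tender 3, a further 24 single-exon pieces of 1.52 to 11.08 FPKM lay in the last exon of the second annotated transcript, and the splice that joins this exon to the rest was not assembled. Counting spliced transcripts alone, *CTSC* had 2.66 to 5.14 FPKM in Tough and 2.74 to 16.1 FPKM in Tender. On that count the log2 fold change was -0.66 ± 0.33 (exact permutation p = 0.0823, limma adjusted p = 1.00), and 4 Tender loins exceeded the highest Tough loin. The authors' own 95% limits on the FPKM of the main spliced transcript were within 9.73% of its value in every library. Those limits cover the error within a library only.

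**Figure D2:**
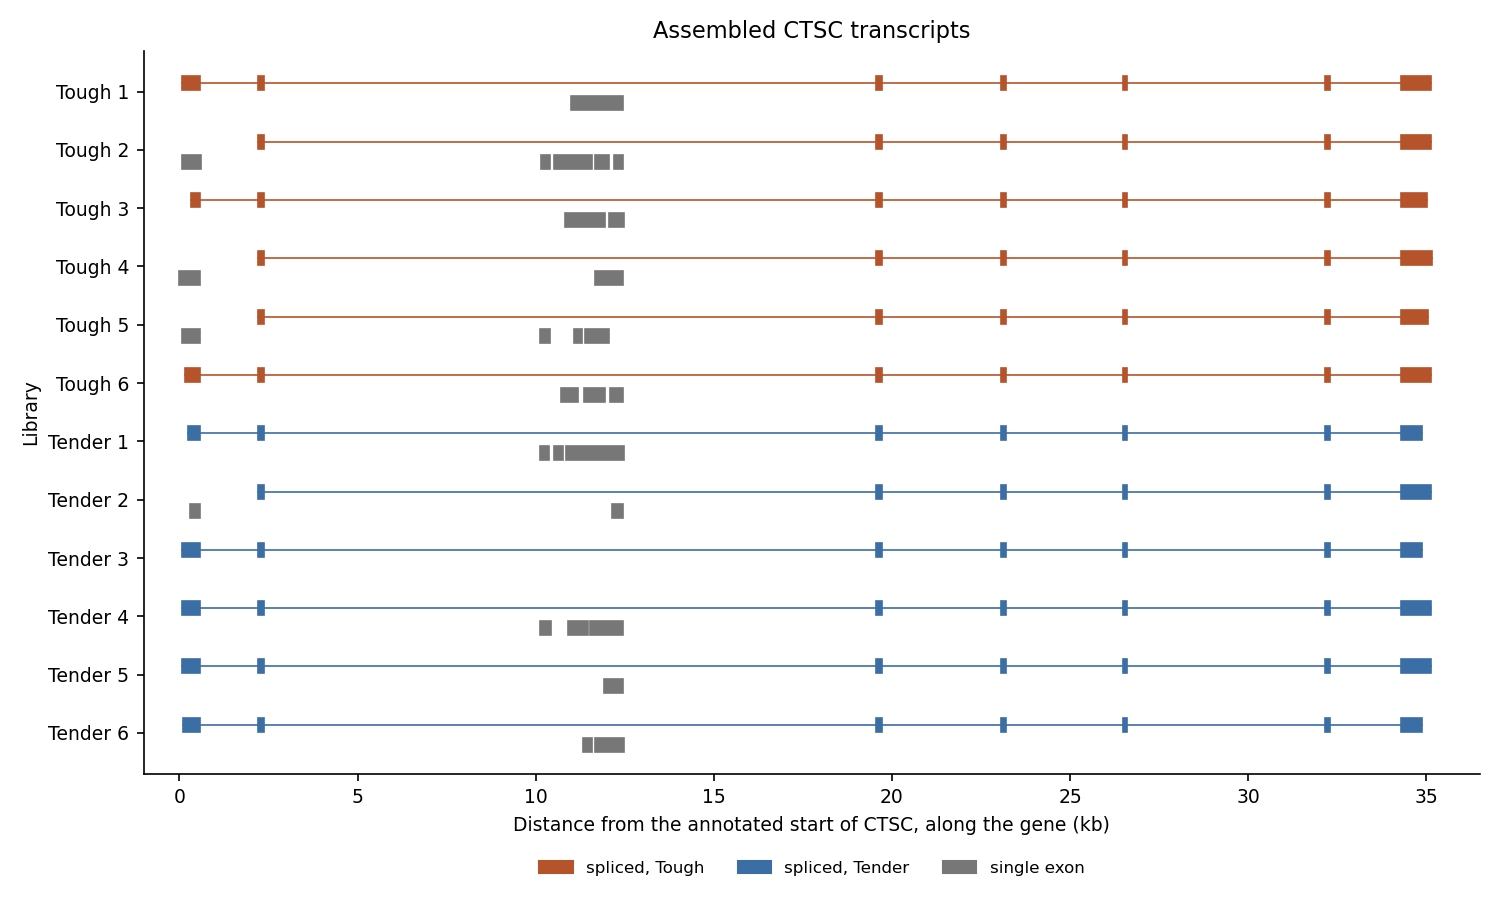
Assembled transcripts assigned to CTSC in each library, Tough above Tender, drawn against the distance from the annotated gene start in kb along the gene. Boxes are exons and lines are introns. Exon 1 is joined to exon 2 in 8 libraries and stands apart in Tough 2, 4 and 5 and in Tender 2, and single-exon pieces lie inside the second intron in 11 of 12 libraries.

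*CTSD* and *CTSB*, the major lysosomal endopeptidases by level here, did not differ beyond the spread of the animals. *CTSD* had 105.5, 78.8, 102, 113, 91.0 and 74.0 FPKM in Tough 1 to 6, against 68.1, 144, 144, 83.8, 124 and 119 FPKM in Tender 1 to 6. Of the Tender loins 4 lay above every Tough loin and 1 lay below them all. The fitted log2 difference was -0.24 ± 0.20 (95% interval -0.68 to 0.20, exact p = 0.258).

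*CTSB* had 48.5, 34.8, 32.8, 42.2, 37.1 and 29.1 FPKM in Tough 1 to 6, against 30.9, 55.6, 46.0, 36.8, 46.2 and 41.3 FPKM in Tender 1 to 6. Only Tender 2 exceeded the highest Tough loin. For *CTSB* the log2 fold change was -0.19 ± 0.16 (95% interval -0.54 to 0.17, exact p = 0.268). The gene (chr14:15014139-15035081, minus strand) was assembled with several first exons. Most transcripts began 262 to 275 bases inside the annotated start, but chains that began 5092 to 6639 bases inside it were found in Tough 2, 3 and 4 and in Tender 2 and 6. They held 13.7%, 35.4% and 58.3% of the summed FPKM of spliced *CTSB* transcripts in Tough 2, 3 and 4, and 49.8% and 68.6% in Tender 2 and 6. In Tough 5 the only spliced transcript began 9746 bases inside the start, and 1982 of its 3828 bases lay in annotated exons. Counted by exon base, *CTSB* was therefore 19.3 FPKM in Tough 5 in place of 37.1, and the log2 fold change became -0.34 ± 0.21 (exact p = 0.154). Where 90% of the bases of a transcript had to lie in the gene, *CTSB* was at 0 in Tough 5 and the log2 fold change was -1.23 ± 0.98.

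The exopeptidases *CTSA*, *CTSZ* and *CTSH* gave smaller or equally uncertain differences. *CTSA*, on chromosome 17, which also shields lysosomal beta-galactosidase and neuraminidase from breakdown, had 27.3, 17.7, 17.2, 19.8, 16.5 and 12.9 FPKM in Tough 1 to 6, against 13.1, 20.5, 23.8, 18.2, 19.6 and 25.0 FPKM in Tender 1 to 6. Both the highest and the lowest loin were Tough. Its log2 fold change was -0.11 ± 0.19 (95% interval -0.53 to 0.30). *CTSZ* (chr17:59141497-59149377), a carboxypeptidase, had 24.2, 10.4, 13.2, 17.3, 16.9 and 12.6 FPKM in Tough 1 to 6, against 10.8, 24.6, 19.0, 16.4, 17.9 and 14.1 FPKM in Tender 1 to 6. Its groups spanned nearly the same range, and the log2 fold change was -0.13 ± 0.22 (95% interval -0.61 to 0.36). Under the 90% rule *CTSZ* was likewise at 0 in Tough 5, in place of 16.9 FPKM, and its log2 fold change was -0.98 ± 0.80.

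*CTSH* (chr7:48084882-48106072), an aminopeptidase, had 6.96, 2.93, 3.49, 5.42, 5.76 and 2.58 FPKM in Tough 1 to 6, against 3.02, 8.12, 6.03, 5.24, 6.32 and 5.10 FPKM in Tender 1 to 6. Tender 2 was the highest and 2 Tough loins lay below the lowest Tender loin. This gave a log2 fold change of -0.32 ± 0.26 (95% interval -0.88 to 0.25, exact p = 0.281). *CTSA*, *CTSD* and *CTSZ* were each assembled with the same intron chain, matching the annotation in full, in all 12 libraries.

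*CTSS* and *CTSK* lie next to each other on chromosome 4, on the same strand and 10303 bases apart. *CTSS* (chr4:98415273-98442952), which in human and mouse trims the invariant chain in antigen-presenting cells, had 1.07, 0.589, 0.580, 0.581, 0.804 and 0.426 FPKM in Tough 1 to 6, against 0.677, 1.37, 0.632, 1.75, 0.593 and 0.810 FPKM in Tender 1 to 6. Of the Tough loins 4 lay below the lowest Tender loin, while Tender 2 and 4 lay above the highest Tough loin. Fitted as log2, the difference was -0.29 ± 0.20 (95% interval -0.73 to 0.15, exact p = 0.188).

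*CTSK* (chr4:98389459-98404969), the main collagen-cleaving cathepsin of osteoclasts in human and mouse, was the only tested member with a fitted value above 0, and that sign rested on 1 library. It had 1.47, 0.911, 1.27, 1.56, 2.06 and 0.797 FPKM in Tough 1 to 6, against 0.856, 0, 1.53, 2.37, 1.69 and 1.33 FPKM in Tender 1 to 6. The 0 of Tender 2 came from the assembly. The annotations of *ARNT*, the gene before it on the same strand, and of *CTSK* overlap by 554 bases, and in Tender 2 both genes were assembled as a single transcript of 29 exons and 7556 bases. Of these bases 3652 lay in *CTSK*, under the minimum share of 50%, so the transcript was not assigned to it. Counted by exon base, *CTSK* was 2.16 FPKM in Tender 2 and averaged 1.65 ± 0.495 FPKM in Tough and 1.94 ± 0.574 FPKM in Tender. The log2 fold change was 0.18 ± 0.36 from assigned transcripts (95% interval -0.60 to 0.97), -0.18 ± 0.19 by exon base (95% interval -0.59 to 0.24) and -0.15 with Tender 2 left out.

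*CTSF* and *CTSL* were hardly assembled. *CTSF* (chr2:5855083-5860258), a cysteine endopeptidase, was listed at 0 in 11 libraries and at 2.76 FPKM in Tough 4. Tough 4 and Tender 4 also held a chain with all 13 annotated introns, which ran on upstream of the gene so that 1535 of 3986 bases in Tough 4 and 1586 of 3355 bases in Tender 4 lay in *CTSF* exons. Counted by exon base, *CTSF* was 0.82 FPKM in Tough 2 and 7.10 FPKM in Tough 4, against 6.44 FPKM in Tender 4, and 0 elsewhere. On the other strand, 127 bases beyond its end, lies *ACTN3*, the fast-fibre alpha-actinin, at 1539 to 2264 FPKM in Tough and 1030 to 2378 FPKM in Tender. Whether this neighbour bears on the missing assemblies was not tested.

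*CTSL* (chr10:27668523-27674705), a cysteine endopeptidase, was listed at 0, 0.868, 0.401, 0.251, 0 and 0 FPKM in Tough 1 to 6, against 0.199, 0, 0, 0.889, 0 and 0 FPKM in Tender 1 to 6. A chain with all 7 introns was assembled in Tough 2 and Tender 4 only. The authors' 95% limits on its best spliced transcript were 28.1% to 58.0% of the value to either side, so its level is poorly determined. Its close relative *CTSV*, as the annotation names it, averaged 30.0 ± 8.27 FPKM in Tough and 34.2 ± 9.25 FPKM in Tender, and how reads were divided between the pair was not tested. Which of the annotated *CTSL* and *CTSV* corresponds to human cathepsin L was not settled here, so the low level is that of the gene annotated as *CTSL*.

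**Figure D3:**
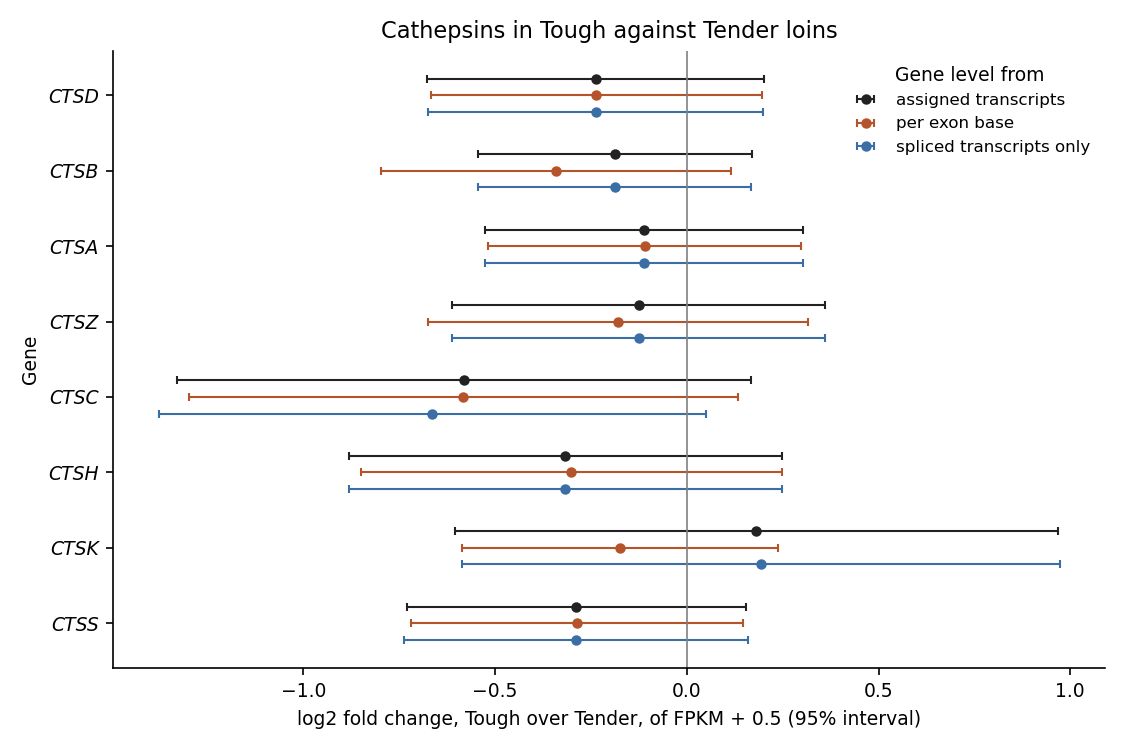
Fitted log2 fold change of Tough over Tender (horizontal axis, from limma on log2 of FPKM + 0.5) for the 8 cathepsins tested, with 95% intervals, from assigned transcripts, per exon base and from spliced transcripts only. Every interval spans 0, and CTSK is at 0.18 from assigned transcripts and at -0.18 per exon base.

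Within the groups, the levels were also set against the shear force of each animal, as 16 relations of 8 genes in 2 groups. In Tough, *CTSA* ordered the 6 loins exactly as shear force did (Spearman's rho = 1.00, exact p = 0.00278, the smallest that 720 pairings allow). Pearson's r was 0.91 (exact permutation p = 0.00417), and adjusted over all genes the p was 0.656 for r and 0.538 for rho. Without the 2 loins farthest from the median shear force r was 0.98 over 4 loins. *CTSB* gave r = 0.87 (exact p = 0.0236, adjusted p = 0.656) and rho = 0.83 (exact p = 0.0583, adjusted p = 0.791) in Tough, with r = 0.62 without those 2 loins. At an unadjusted p of at most 0.05, 2 of 8 members thus stood in Tough, where 7% of all genes stood, and 0 of 8 passed an adjusted p of 0.10.

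The other members in Tough had r between 0.32 for *CTSK* and 0.75 for *CTSD*, none with an exact p of at most 0.05. In Tender the shear force spanned only 2.18 to 3.43 kg/cm2, and 0 of 8 members had an exact p of at most 0.05, where 3.28% of all genes did. *CTSA* gave r = 0.02 (exact p = 0.978, adjusted p = 1.00) and rho = 0.14 (exact p = 0.803) in Tender, and *CTSB* gave r = -0.54 (exact p = 0.268, adjusted p = 1.00) and rho = -0.43 (exact p = 0.419). Without the 2 farthest loins r was -0.53 for *CTSA* and -0.72 for *CTSB* in Tender. *CTSC* had r = 0.37 in Tough (exact p = 0.481) and r = 0.51 in Tender (exact p = 0.297). Whether the relations differ between the groups was not tested.

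**Figure D4:**
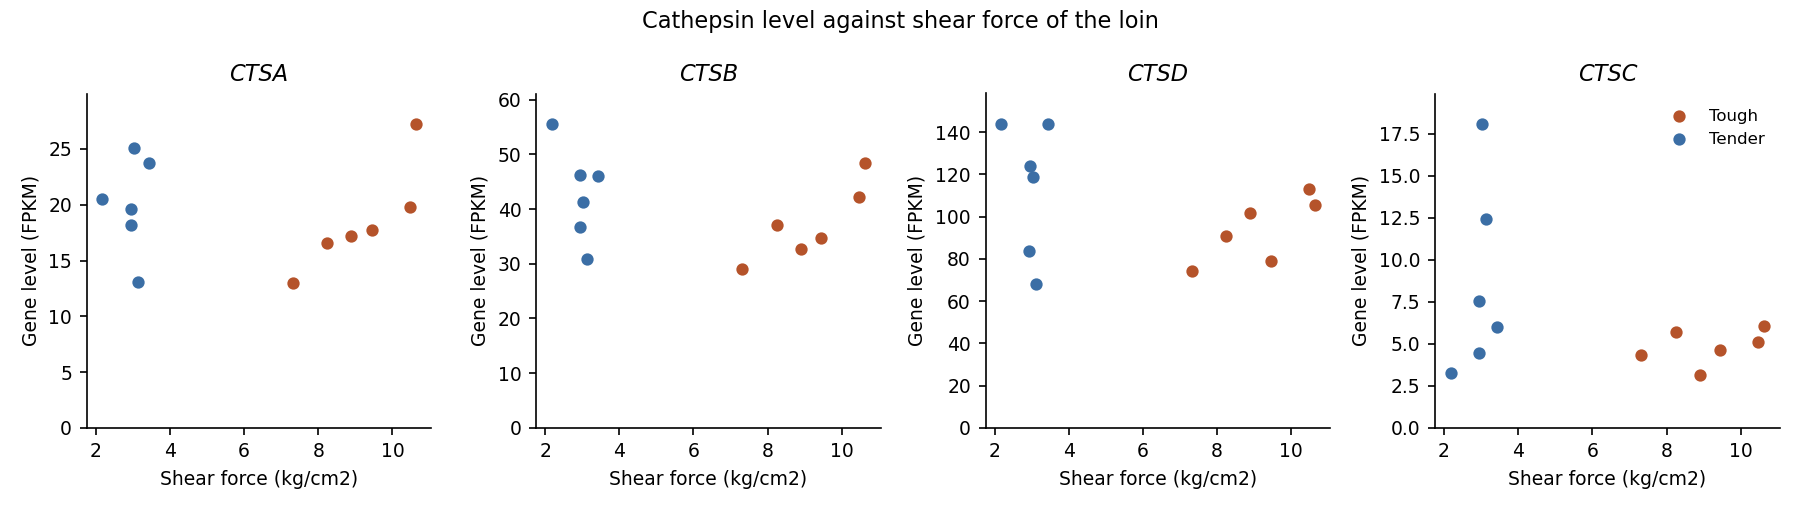
Level in FPKM (vertical axis, from 0) against Warner-Bratzler shear force in kg/cm2 (horizontal axis) for CTSA, CTSB, CTSD and CTSC, 1 point for each of 6 Tough and 6 Tender loins. CTSA follows the order of shear force in Tough, from 12.9 to 27.3 FPKM, while the Tender loins lie within 2.18 to 3.43 kg/cm2.

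The members were then compared with each other within the groups, after the group mean of log2(FPKM + 0.5) was taken off, as a description over 12 libraries that share depth and assembly. Rank correlations among *CTSA*, *CTSB*, *CTSD*, *CTSH* and *CTSZ* ran from 0.59 (*CTSA* with *CTSH*) to 0.94 (*CTSH* with *CTSZ*). *CTSB* gave 0.90 with *CTSH*, 0.87 with *CTSZ* and 0.87 with *CTSD*. *CTSC* gave -0.42 with *CTSD*, -0.25 with *CTSB* and 0.04 with *CTSA*. After median-of-ratios scaling of the libraries these were -0.12, -0.05 and 0.09, while the pairs among the 5 genes ran from 0.66 to 0.94. *CTSC* was not alone in this, since *CTSK* and *CTSS* gave at most 0.29 and 0.49 with any of the 5 genes, each with *CTSH*. Scaled, those 2 pairs were at 0.19 and 0.43. The summed level of the 5 genes was 131 to 212 FPKM in Tough and 126 to 252 FPKM in Tender, lowest in Tender 1 and Tough 6 and highest in Tender 2 and 3. Many other genes moved with them as well. By likeness to *CTSB*, *CTSD* ranked only 157 among 7375 genes, *CTSH* ranked 93, *CTSZ* 137 and *CTSA* 616. By likeness to *CTSH*, *CTSZ* ranked 25 but *CTSA* only 1562, so *CTSA* belonged to the group more loosely.

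**Figure D5:**
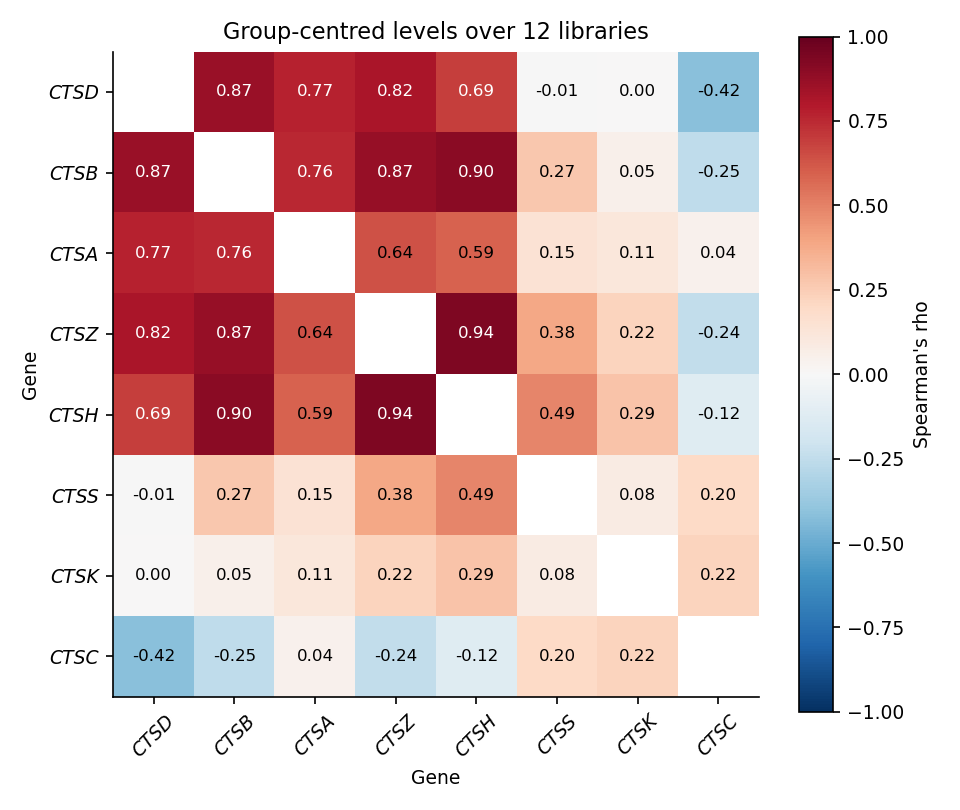
Spearman's rho between the group-centred log2 levels of the 8 tested cathepsins over 12 libraries, as numbers and colours from -1 to 1. CTSD, CTSB, CTSA, CTSZ and CTSH form a block from 0.59 to 0.94, and CTSC gives -0.42 with CTSD (-0.12 after median-of-ratios scaling). CTSS and CTSK also lie outside the block, with at most 0.49 and 0.29 with any gene in it.

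The genes with a mean of at least 1 FPKM whose group-centred levels were most like each member were also listed, as the 3 highest rank correlations among 7375 genes. For *CTSB* they were *CDK4* (0.99), *LGMN* (0.98), which encodes the asparaginyl endopeptidase that cuts cathepsin precursors, and *EEF1AKMT1* (0.97). For *CTSD* they were *PRADC1* (0.98), *JOSD2* (0.96) and *ATP6V0C* (0.95), a subunit of the proton pump that acidifies lysosomes. *CTSH* was most like *CD81* (0.99), *ZFPL1* (0.98) and *DHDH* (0.97). *CTSZ* was most like *GLIPR2* (0.97), *CD99* (0.94) and *FCER1G* (0.94), the Fc receptor gamma chain of myeloid cells. *CTSA* was most like *ENDOG* (0.94), *TIMM17A* (0.92) and *CCDC71* (0.92). For *CTSC* the nearest were *METAP1D* (0.80), *GLTP* (0.80) and *RFTN2* (0.79), which gave 0.85, 0.86 and 0.68 after median-of-ratios scaling. *CTSS* was most like *NUB1* (0.93), *B4GALT1* (0.92) and *TMEM70* (0.91), and *CTSK* most like *JCAD* (0.87), *PIGQ* (0.84) and *ACTR1B* (0.84). After the same scaling *NUB1* gave 0.70, *JCAD* 0.71, *CCDC71* 0.73 and *DHDH* 0.80 with their members. *CDK4* and *GLIPR2* each gave 0.99, so the dependence on scaling varied between genes.

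Other genes of the lysosome were taken from lists. Of 24 hydrolases tested, 5 had a fitted value above 0 and 19 below, with a median log2 fold change of -0.13, and 0 were called. Among them was *TPP1* (tripeptidyl peptidase), at 9.26 ± 1.97 FPKM in Tough and 11.2 ± 1.75 FPKM in Tender (log2 fold change -0.27 ± 0.16, exact p = 0.0996, limma adjusted p = 0.9999). Of 22 genes of acidification and of the lysosomal membrane, 2 lay above 0 and 20 below, with a median of -0.16 and 0 called. *NPC1*, a cholesterol exporter, had the smallest p there, with 1.80 ± 0.392 FPKM in Tough and 2.79 ± 0.670 FPKM in Tender (-0.50 ± 0.17, exact p = 0.0195, limma adjusted p = 0.9999). These counts stand beside the 60.1% of all genes with a fitted value below 0.

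The sorting route gave 4 of 9 tested genes above 0 and 5 below, and 0 were called. *NAGPA*, the enzyme that uncovers mannose 6-phosphate, averaged 0.578 ± 0.166 FPKM in Tough and 0.832 ± 0.112 FPKM in Tender (log2 fold change -0.31 ± 0.12, exact p = 0.0216, limma adjusted p = 0.9999). The receptors were *M6PR*, at 5.56 ± 1.64 FPKM in Tough and 6.95 ± 1.20 FPKM in Tender, and *IGF2R*, at 6.99 ± 2.22 FPKM in Tough and 6.24 ± 2.83 FPKM in Tender. *SORT1*, a further sorting receptor, averaged 2.12 ± 0.265 FPKM in Tough and 1.80 ± 0.198 FPKM in Tender (exact permutation p = 0.0455, limma adjusted p = 0.9999). *GNPTAB* and *GNPTG*, which add the tag, had log2 fold changes of 0.15 ± 0.16 and 0.09 ± 0.40. The membrane proteins *LAMP1*, *SCARB2* and *CD63* had -0.05 ± 0.15, -0.35 ± 0.25 and -0.21 ± 0.18, and *LAMP2* was listed at 0 in 11 libraries.

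Among the cystatins, the inhibitors of cysteine cathepsins, *CST3* was the highest and varied most in Tough, at 131 ± 65.2 FPKM in Tough and 116 ± 18.6 FPKM in Tender (log2 fold change 0.05 ± 0.29). *CSTB*, the inhibitor of the cytosol, was nearly even at 26.9 ± 2.85 FPKM in Tough and 26.0 ± 3.20 FPKM in Tender, and *CST6* averaged 15.0 ± 3.66 FPKM in Tough and 19.98 ± 8.21 FPKM in Tender. *CST7* was listed at 0 in 9 libraries. Of the other cathepsins, *CTSV* had a log2 fold change of -0.19 ± 0.21, and *CTSW*, a gene of lymphocytes in human and mouse, had 0.44 ± 0.39 and was listed at 0 in 1 library. *CTSO* was listed at 0 in 9 libraries. Of the transcription factors of lysosomal genes, *TFEB* averaged 16.8 ± 3.58 FPKM in Tough and 12.8 ± 4.24 FPKM in Tender (0.40 ± 0.21, exact p = 0.0909, limma adjusted p = 0.9999). *TFE3* had -0.04 ± 0.13 and *MITF* -0.08 ± 0.22, and *TFEC* was listed at 0 throughout. No gene of these 3 lists was called.

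Markers of other cells moved with some of these values. The summed macrophage markers were 19.6 to 65.5 FPKM in Tough and 23.9 to 108 FPKM in Tender, where 108 was Tender 2. Of 11 macrophage genes tested 2 lay above 0 and 9 below, with a median log2 fold change of -0.32 that was -0.09 without Tender 2, and *CD68* was listed at 0 in 8 libraries. *CD14* averaged 0.374 ± 0.438 FPKM in Tough and 1.64 ± 1.52 FPKM in Tender (exact p = 0.0281, limma adjusted p = 0.9999) and was listed at 0 in 2 libraries. Over 12 libraries the summed macrophage markers had a rank correlation of 0.76 with *CTSH*, 0.75 with *CTSB* and 0.74 with *CTSZ*. For *CTSS*, *CTSA*, *CTSD*, *CTSC* and *CTSK* it was 0.73, 0.59, 0.47, 0.28 and 0.23. These values, and those for endothelial and blood markers below, were not group-centred. The percentage of transcripts assigned to a gene gave 0.68 with *CTSH*, 0.59 with *CTSZ* and 0.53 with *CTSB*. With *CTSS* it gave 0.28 and with *CTSC* -0.27. Whether cell content or assembly lies behind these correlations was not tested. The class II antigen presentation genes had 1 of 8 above 0 and a median of -0.24 (-0.01 without Tender 2), and the genes induced by interferon gamma 0 of 7 and a median of -0.52 (0.08 without Tender 2). Of the T and NK lymphocyte genes only 1 of 7 was tested, *CD3E*, and the part of these cells in the cathepsin values was not tested.

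Endothelial markers summed to 19.4 to 41.1 FPKM in Tough and 34.4 to 51.2 FPKM in Tender, with 0 of 6 above 0 and a median of -0.26. Their sum had a rank correlation of 0.79 with *CTSS*, 0.74 with *CTSA* and 0.62 with *CTSC*. For *CTSB*, *CTSH*, *CTSZ*, *CTSD* and *CTSK* it was 0.58, 0.57, 0.57, 0.55 and 0.46. The red blood cell genes *HBB* and *ALAS2* both had an exact permutation p of 0.00216, the smallest this design allows. Together with *AHSP*, a red blood cell gene that was not tested, they summed to 124 to 207 FPKM in Tough and 239 to 353 FPKM in Tender. Their sum had a rank correlation of 0.50 with *CTSC* and 0.55 with *CTSD*. The other members were close to these, with 0.49 for *CTSA*, 0.49 for *CTSB*, 0.45 for *CTSH*, 0.43 for *CTSS*, 0.39 for *CTSZ* and 0.34 for *CTSK*. The fibroblast matrix genes lay the other way, with 8 of 8 above 0 and a median of 0.17, and *COL3A1* at 26.9 ± 10.6 FPKM in Tough and 17.8 ± 13.3 FPKM in Tender. The adipocyte genes gave 2 of 4 and a median of -0.03, with *ADIPOQ* at 0 throughout, and the skeletal muscle genes 5 of 11 and a median of -0.20. None of these genes was called, and the part of vessels, blood and fibres in the cathepsin values was not tested.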

How the data were processed

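The *Longissimus dorsi* of 6 Tough and 6 Tender Iberian pigs was sequenced as 1 library each (total RNA, paired ends, HiSeq2000). Per the labels, the authors checked reads with FastQC, removed adapters using Trim Galore, aligned to Sscrofa11.1 by TopHat2 2.1.0, and assembled transcripts with Cufflinks 2.2.1. The deposited file of each library gives exons with FPKM, 95% limits and read coverage as Cufflinks computed them. The deposited isoform score of up to 1000 was not used. The files hold no read counts. The median coverage per FPKM, over a filtered set of transcripts, was 6.55 to 10.3 across libraries. Scaled to the annotated exon length, as gene FPKM is, the coverage of *CTSL* and *CTSS* was at most 7.46 and 11.0 times. The highest *CTSS* transcript itself was covered 11.5 (Tough 3) to 32.9 (Tender 2) times. Whether counting used strand is not given in the sources used here.

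A transcript was assigned to the RefSeq gene (Annotation Release 106) holding most of its bases, at least 50%, on its strand, or on either strand where it had none. Gene FPKM is the summed FPKM times length over the exon length of the gene. The measure per exon base drops the minimum share and counts only bases in exons of the gene. Where assembled transcripts are shorter than the annotated exons, gene FPKM lies below transcript FPKM.

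Genes with a mean over 0.5 FPKM were tested on log2(FPKM + 0.5) by limma 3.58.1 (R 4.3.3, eBayes with trend), with group as the only factor. Fold changes are on that scale and understate those of low genes. All tests are two-sided and exact tests ran over every regrouping or all 720 pairings. The limma fit was tested on simulated data. Named genes were all 10 members, every gene of the short lists (other cathepsins, cystatins, sorting, transcription factors), up to 4 of the smallest p from longer lists, of which some are given, and the 3 most alike genes of each member. *GAPDH*, *ALDOA*, *CKM*, *GBP1*, *TTN*, *ACTN3* and *ARNT* were named after their values were seen. The members and lists were chosen with earlier results of these data known. The start of 1 member and 1 hydrolase are not reported here. Alternatives were another pseudocount, filter, scaling, transcript rule or test, a replicate block, and each library left out. Nothing in the sources says that animals of the same number are related, and their deviations did not correlate above 0.0204.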

Additional observations from a re-analysis of the deposited data

Results flagged for a closer look

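Of the 20 sets of 6 values made by the 10 cathepsins in the 2 groups, 2 had a sample standing far from the others. The criterion's rate of about 1 in 20 by chance holds for normally distributed values. Both flagged sets hold mostly values listed at 0, so that rate does not apply to them. *CTSF* in Tough 4 was at 2.76 FPKM while the other 5 Tough loins were listed at 0. *CTSL* in Tender 4 was at 0.889 FPKM while the other 5 Tender loins were listed at 0 to 0.199 FPKM. Both values rest on which transcripts were assembled, and Tough 4 and Tender 4 are also the libraries in which the full intron chain of *CTSF* was found. The 18.1 FPKM of *CTSC* in Tender 6 did not meet the criterion.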

How the results depend on the processing

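Across the settings run, 0 genes and 0 cathepsins were called, although the number of genes at an unadjusted p of at most 0.05 ranged from 147 to 411 with single libraries left out and the smallest adjusted p reached 0.101 without Tender 2. The median log2 fold change of the cathepsins lay between -0.31 and -0.15 with each library left out, and at -0.12 under quantile normalization. *CTSK* turned from 0.18 to -0.18 per exon base, to -0.15 where 90% of the bases of a transcript had to lie in the gene, which leaves *CTSK* at 0 in Tough 1, and to -0.15 without Tender 2, where *CTSK* is listed at 0. It ranged from -0.15 to 0.35 with each library left out. No other tested member changed sign. With each library left out, *CTSC* ranged from -0.80 to -0.33, *CTSB* from -0.27 to -0.11, *CTSD* from -0.37 to -0.16, *CTSH* from -0.47 to -0.19, *CTSS* from -0.38 to -0.16, *CTSA* from -0.23 to -0.02 and *CTSZ* from -0.26 to -0.02. Under the 90% rule *CTSB* was at -1.23 and *CTSZ* at -0.98, both with Tough 5 at 0. For shear force 0 members passed an adjusted p of 0.10 in either group in any setting, with 1 to 3 in Tough and 0 to 2 in Tender at an unadjusted p of at most 0.05. With the animal number as a replicate block, 0 genes were called, *CTSC* kept its fitted value of -0.58 with an SE of 0.32, and the block changed no call. The settings strand only and spliced only were chosen after the data were seen. Low coverage limits *CTSL*, whose highest transcript was covered 3.05 (Tender 1) to 7.17 (Tough 3) times where one was assigned. For *CTSS* it was 11.5 (Tough 3) to 32.9 (Tender 2) times. The full *CTSF* chain was covered 59.5 times in Tough 4 and 64.0 times in Tender 4, but fell under the minimum share and was not assigned. Why that chain was not assembled elsewhere was not tested.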
